A study of Saccharomyces cerevisiae with 8 samples.

Results

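The comparison set 2 arrays of a Saccharomyces cerevisiae strain labelled spt3 against 2 arrays of the wild-type strain, which are 4 of the 8 arrays in the study. The arrays were chosen by their titles and paired by replicate number, so that replicate 1 of spt3 faced replicate 1 of wild type and replicate 2 faced replicate 2. The other 4 arrays came from a not1-2 strain and a not1-2 spt3 double mutant. Each array gave a signal for 9275 probe sets other than controls, and 7043 of these had enough signal to be tested, at most 1 for each gene. Both strains were grown for 24 h at 30°C in rich glucose medium, shifted to 37.5°C at an optical density of 0.2 and collected at 0.8. The wild type was thus kept at the temperature that restricts the not1-2 mutant, and no array shows either strain at a permissive one. The labels give no parent strain, mating type, marker genes or form of the spt3 mutation, and nothing in them says whether replicates came from separate cultures. A p-value here therefore measures the spread between these arrays, which may be technical, and 2 arrays a strain limit the precision.

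Spt3 is a subunit of SAGA, a coactivator complex that acetylates and deubiquitinates histones and brings the TATA-binding protein to promoters. Spt3, with Spt8, is the part of SAGA that works most directly with the TATA-binding protein, and in yeast it is needed for normal transcription of Ty elements and of some mating pheromone genes. SAGA serves many genes that respond to stress or to a change of nutrients, among them genes with a TATA box that are regulated over a wide range.

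Signals below are median-centred intensities in arbitrary units, which can be compared between arrays for 1 probe set but not between probe sets. Differences are spt3 minus wild type on the log2 scale with a standard error (SE), 2 arrays against 2, and 1.72 is the floor to which lower signals were raised. For ACT1, a control whose 3' and 5' ends are read separately, wild-type replicate 1 had 199.1 times as much 3' as 5' signal and spt3 replicate 1 had 5.83 times as much. Both second replicates had under 2 times as much, 1.88 in wild type and 1.79 in spt3, so this sign of RNA integrity differed within the first pair. Pearson's r between the 2 arrays of a strain, over probe sets, was 0.864 for wild type and 0.95 for spt3. In bulk RNA, fewer cells of a kind and less RNA per cell cannot be told apart.

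With the replicate number as a block in limma, 40 probe sets differed between spt3 and wild type at a Benjamini-Hochberg adjusted p of at most 0.05. They were 0.568% of those tested, and 12 were higher in spt3 (0.17%) and 28 lower (0.398%). At so low a share, a short gene list with no call says little about its genes. All 40 differed by at least 1 on the log2 scale in the same direction in both pairs. Over all probe sets tested, 1.01% were higher and 3.78% lower by that measure. The agreement of the 40 is no separate support, since the test used these same arrays and favours it. A single gene was named by 23 of the 40, 9 higher and 14 lower, and 9 of the 23 are mating-type genes. A further 13 carried no gene name, 12 of them lower, and 4 matched several genes. Most sat close to the threshold, with 31 of the 40 at an adjusted p over 0.03 and 8 under 0.01. Without the block 4 probe sets passed (0.0568%), and with the ACT1 ratio added to the block 2 did (0.0284%), MFA1 and MFA2. The count was between 5 and 21 when any 1 array other than spt3 replicate 2 was left out, and 687 without spt3 replicate 2.

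**Figure D1:**
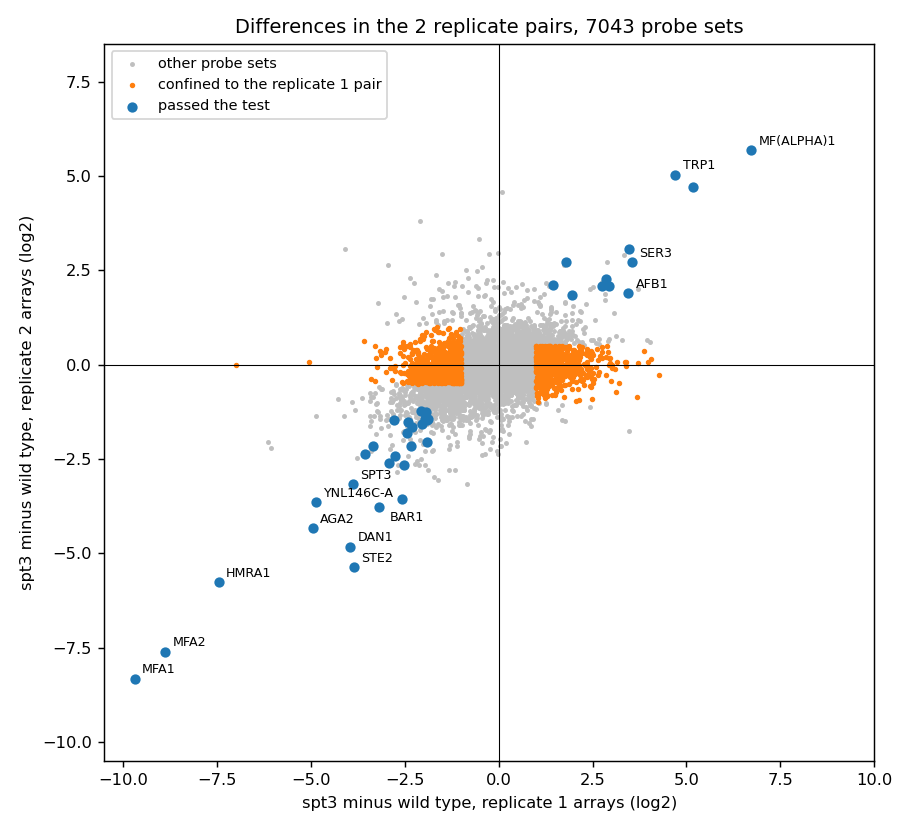
Difference between spt3 and wild type (log2) on the replicate 1 arrays (x axis) and the replicate 2 arrays (y axis) for the 7043 probe sets tested. Blue points are the 40 that passed the test and lie along the diagonal, where the test favours calls. Orange points are differences confined to the replicate 1 pair, 778 higher and 655 lower.

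The targeted gene and the strain markers were read first. SPT3 gave signals of 25.3 and 15.5 on the wild-type arrays and was at the floor on both spt3 arrays. It was at least 11.5-fold lower in spt3 (adjusted p = 0.0206, and 0.112 without the block), so its absence goes with the label. Of the genes on either side of SPT3, IAT4 differed by 0.07 ± 0.38 and SHE9, a mitochondrial inner membrane protein gene, by -1.07 ± 0.53 (adjusted p = 0.939 and 0.321).

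TRP1, which encodes an enzyme of tryptophan synthesis and is widely used as a marker in strain construction, did not rise above the floor in wild type. It gave 44.8 and 56.2 on the spt3 arrays, at least 29.2-fold higher (adjusted p = 0.00102). The strains do not overlap, and TRP1 was also at the floor on both not1-2 arrays, at 1.72 each. Its neighbours SOK1 and GAL3 differed by 0.23 ± 0.29 and -0.20 ± 0.35 (adjusted p = 0.702 and 0.782). The other marker genes HIS3 (-0.15 ± 0.32), LEU2 (-0.16 ± 0.27), LYS2 (0.15 ± 0.29), ADE2 (0.89 ± 0.42), URA3 (-1.07 ± 0.73), CAN1 (0.83 ± 0.42) and MET17 (1.23 ± 0.28) did not pass the test. TRP1 expression and the spt3 mutation cannot be told apart as sources of any difference from wild type.

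Mating-type genes held the largest differences. MATa and MATalpha cells of yeast express different pheromones, receptors and agglutinins, and an a-specific gene is active in MATa cells while an alpha-specific gene is active in MATalpha cells. MFA1 and MFA2 both encode a-factor. MFA1 gave 3999 and 737 in wild type and 4.82 and 2.31 in spt3, a fall of 9.01 ± 0.38 (adjusted p = 1.56e-05). MFA2 gave 4972 and 1448 against 10.6 and 7.45, a fall of 8.24 ± 0.44 (adjusted p = 5.38e-05). These were the largest differences of all those tested, and the strains lay far apart for both genes.

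The other a-specific genes went the same way. AGA2, the binding subunit of a-agglutinin, gave 192 and 99.5 in wild type against 6.24 and 4.93 in spt3 (-4.64 ± 0.41, adjusted p = 0.00166). BAR1, the secreted protease that degrades alpha-factor, gave 105 and 221 against 11.4 and 16.3 (-3.48 ± 0.34, adjusted p = 0.00325). STE2, the alpha-factor receptor, gave 24.9 and 126 against the floor and 3.07 (-4.61 ± 0.70, adjusted p = 0.0367). STE6, the a-factor exporter, was at -2.35 ± 0.43 and did not pass (adjusted p = 0.0506). ASG7 was at the floor on both spt3 arrays, at least 8.76-fold below wild type, and did not pass (adjusted p = 0.0792). All 7 a-specific genes were lower in both pairs and did not overlap between the strains. For comparison, 15.9% of all probe sets tested were lower on both spt3 arrays than on both wild-type arrays. HMRA1, the silent copy of the a1 gene, gave 300.3 and 113 in wild type against the floor and 2.08 in spt3 (-6.61 ± 0.64, adjusted p = 0.00325). Its probe set can also match the identical a1 gene at the MAT locus.

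Alpha-specific genes were higher. MF(ALPHA)1, the main alpha-factor gene, gave 14.9 and 17.1 in wild type and 1582 and 886 in spt3 (6.21 ± 0.49, adjusted p = 0.00102). STE3, the a-factor receptor, gave 16.0 and 19.2 against 107 and 81.9 (2.42 ± 0.42, adjusted p = 0.0489). AFB1, which encodes the a-factor barrier protein of alpha cells, gave 71.8 and 96.1 against 787 and 358 (2.68 ± 0.41, adjusted p = 0.0367). MF(ALPHA)2 was at 1.89 ± 0.70 and SAG1, the alpha-agglutinin gene, at 1.15 ± 0.39, and neither passed (adjusted p = 0.222 and 0.19). These 5 alpha-specific genes were above wild type on both pairs of arrays, and 3 passed. Over all probe sets tested, 1957 of 7043 were above in both pairs and 0.17% passed as higher.

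Among genes that both haploid types use, none of the 9 haploid-specific and none of the 15 pheromone-induced genes tested passed. Over all probe sets 0.568% passed, so lists this short would usually hold no call. The medians of the haploid-specific and pheromone-induced genes were 0.26 and -0.19, against -0.02 over all probe sets. GPA1 and STE4, which encode subunits of the G protein of the pheromone pathway, were at 0.51 ± 0.32 and -0.56 ± 0.34. FUS1, a cell fusion gene that pheromone induces, was at 2.16 in the first pair and -0.39 in the second. The pattern in spt3 is that of alpha cells and the pattern in wild type that of a cells, and the labels name neither. For the genes that follow, mating type and the spt3 mutation cannot be told apart in the comparison with wild type.

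The not1-2 arrays offer a reference with the alpha pattern, though not one of even RNA integrity. The ACT1 3' to 5' ratio was 36.75 on not1-2 replicate 1 and 2.10 on not1-2 replicate 2. On spt3 replicate 1 it was 5.83, so this sign differed within the first pair here too. MFA2 was at 18.0 and 11.5 in not1-2 and MF(ALPHA)1 at 534 and 1617. Thus spt3 and not1-2 share the mating-type pattern while they differ in TRP1, in NOT1 and in SPT3. Of the 7 a-specific genes MFA1 alone passed between spt3 and not1-2, at 34.5 and 9.23 in not1-2 (-2.42, adjusted p = 0.0249). None of the 5 alpha-specific genes passed, with SAG1 at -1.62 (adjusted p = 0.0671). The comparison of spt3 with not1-2 uses the same spt3 arrays as the comparison with wild type, so the 2 are not independent, and values from both are set side by side for each gene. Against not1-2, 161 probe sets passed, 2.29% of those tested, with 23 higher in spt3 (0.327%) and 138 lower (1.96%). That count was 2 without the block (0.0284%) and between 0 and 254 with 1 array left out.

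**Figure D2:**
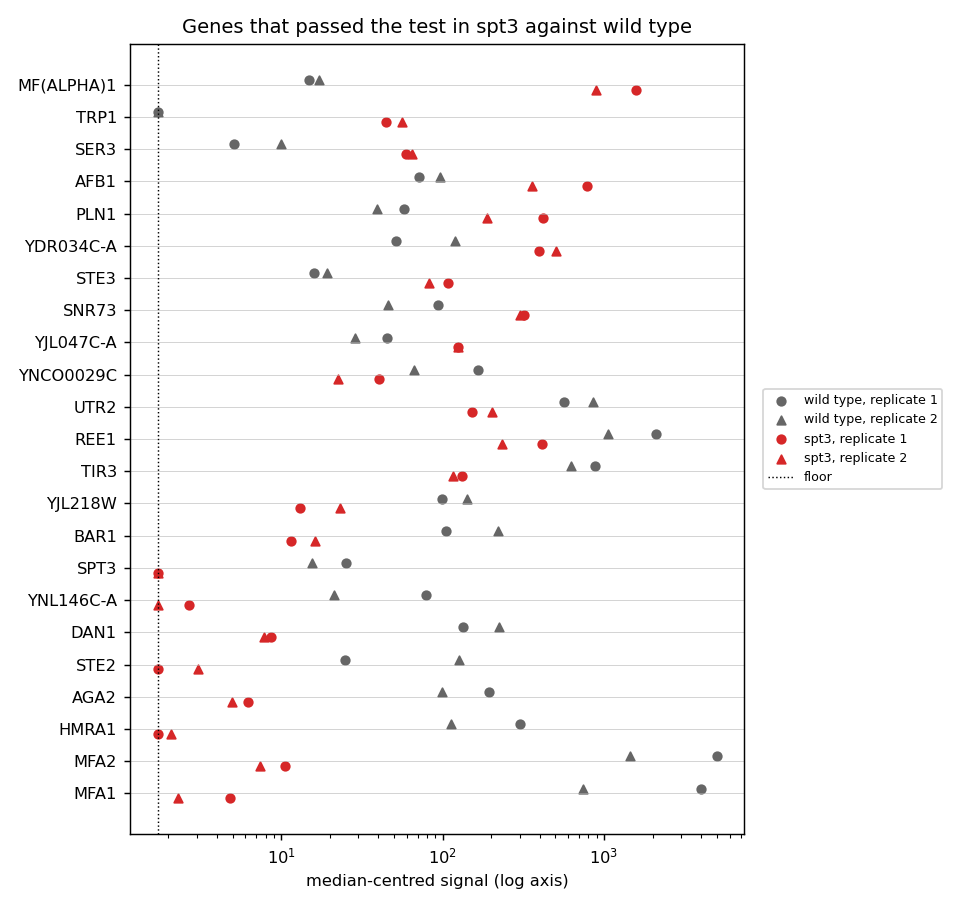
Median-centred signal (log axis) of the 23 genes named by a single probe set that passed the test in spt3 against wild type, on each of the 4 arrays. Circles are replicate 1 and triangles replicate 2, grey is wild type and red is spt3, and the dotted line is the floor of 1.72. The strains overlap for none of the 23, which were picked by a test that used these arrays. Over all probe sets tested, 16% were higher and 15.9% lower in spt3 without overlap.

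Among probe sets that name a single gene and passed, SER3 had the largest rise outside the mating-type genes and TRP1. A pair of probe sets that match several genes and are not named here rose by 4.94 ± 0.80 and 3.27 ± 0.57. SER3 encodes 3-phosphoglycerate dehydrogenase, the enzyme that opens the synthesis of serine. In rich medium yeast represses it through SRG1, a noncoding transcript that runs across its promoter. SER3 gave 5.08 and 9.92 in wild type and 59.6 and 64.9 in spt3. Both spt3 arrays were well above both wild-type arrays, and the gene rose by 3.13 ± 0.31 (adjusted p = 0.00325). Against not1-2, where it gave 10.6 and 18.0, the difference was 2.17 (adjusted p = 0.0206). SRG1 was not measured as a probe set of 1 gene. UTP7, on the other side of SER3, was at 0.40 ± 0.36 (adjusted p = 0.574).

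Of 11 serine and glycine genes tested, SER3 alone passed, and the list median was 0.07. Over all probe sets tested 0.568% passed, so the lack of other calls says little about the pathway. SER33, the paralogue that encodes the same enzyme, gave 84.3 and 55.2 in wild type and 74.5 and 65.0 in spt3, overlapping values with a difference of 0.03 ± 0.31. SER1 and SER2, which encode the next enzymes of the pathway, were at 0.64 ± 0.35 and 0.32 ± 0.32 (adjusted p = 0.365 and 0.612). SHM2, a serine hydroxymethyltransferase gene, was at -0.34 ± 0.25, and GCV1, of the glycine cleavage system, was at 2.00 in the first pair and 0.07 in the second. SER3 passed in 15 of 19 alternative settings, as often as AGA2 and BAR1.

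A few other genes were higher in spt3. PLN1, a perilipin of lipid droplets, gave 57.9 and 39.0 in wild type against 420 and 188 in spt3 (2.56 ± 0.44, adjusted p = 0.0489). On the not1-2 arrays it gave 219 and 322, and spt3 differed from not1-2 by 0.08 (adjusted p = 0.947). AFB1 differed from not1-2 by -0.50 (adjusted p = 0.537). PLN1 and AFB1 thus separated wild type from spt3 and did not pass between the strains of the alpha pattern. PLN1 was the only one of 13 lipid droplet genes to pass, while 0.17% of all probe sets passed as higher. It passed in 3 of 19 alternatives.

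The small open reading frames YDR034C-A and YJL047C-A behaved otherwise. YDR034C-A gave 51.5 and 120 in wild type and 393 and 507 in spt3 (2.51 ± 0.41, adjusted p = 0.0474), and was 3.08 above not1-2 (adjusted p = 0.015). YJL047C-A gave 45.4 and 28.8 in wild type and 124.5 and 124.0 in spt3 (1.78 ± 0.30, adjusted p = 0.0477), and was 2.26 above not1-2 (adjusted p = 0.0142). Like SER3, both were above both reference strains, and their functions are not known here. They passed in 5 and 2 of 19 alternatives against wild type.

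SNR73, a small nucleolar RNA that guides methylation of ribosomal RNA, gave 93.0 and 45.7 in wild type against 321 and 302 in spt3 (2.26 ± 0.36, adjusted p = 0.0417). It belongs to a cluster in which neighbouring small nucleolar RNAs are made from 1 precursor. SNR74 and SNR72, on either side of it, were at 1.71 ± 0.38 and 1.26 ± 0.40 and did not pass (adjusted p = 0.0841 and 0.169). SNR75, SNR76 and SNR77 of the same cluster were at 0.75, 0.97 and 0.36. These 3 were at 1.66, 2.05 and 1.22 in the second pair and at -0.16, -0.11 and -0.50 in the first. Over all 55 small nucleolar RNA genes the median was -0.72 in the first pair and 1.25 in the second. SNR73 alone of them passed, while 0.568% of all probe sets tested did.

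The genes that fell included anaerobic cell wall genes. DAN and TIR genes encode mannoproteins of the cell wall that yeast makes when oxygen is scarce, and cold also induces TIR genes. DAN1 gave 133 and 222 in wild type and 8.62 and 7.84 in spt3. Neither spt3 array came near the wild type, and DAN1 fell by 4.39 ± 0.66 (adjusted p = 0.0367). TIR3 gave 884 and 622 against 132 and 116 and fell by 2.58 ± 0.40 (adjusted p = 0.0367). Both were also lower than in not1-2, DAN1 by -3.61 and TIR3 by -2.26 (adjusted p = 0.0321 and 0.0317). In the double mutant DAN1 gave 9.54 and 14.0 and TIR3 144 and 131, close to the levels in spt3.

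The other measured members did not pass. DAN4, which lies beside DAN1 on the chromosome, gave 112 and 108 in wild type against 35.3 and 34.2 in spt3 (-1.66 ± 0.33, adjusted p = 0.0654). TIR1 gave 6295 and 3651 against 627 and 1435 (-2.34 ± 0.71, adjusted p = 0.159), and TIR4 gave 130 and 351 against 42.2 and 41.9 (-2.34 ± 0.66, adjusted p = 0.14). TIR2 was at -0.67 ± 0.36. All 7 genes of the list that were tested, out of 8, were below wild type in both pairs with no overlap, and 2 passed. Over all probe sets tested 15.9% were lower without overlap and 0.398% passed as lower. The list median was -2.34 over the mean of both pairs, and -1.67 and -1.66 in the pairs taken singly, since a different gene stands in the middle each time. Against not1-2, 4 of the 7 passed as lower, against 1.96% of all probe sets.

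The PAU genes are a large seripauperin family of wall proteins with anaerobic expression and near-identical sequences, and none passed the test. Of 24 genes 10 were measured by probe sets of 1 gene, and the 10 differences ran from -1.91 to -1.14, with a median of -1.35. Each of the 10 was lower by at least 1 in both pairs and did not overlap between the strains. Over all probe sets 3.78% were lower by at least 1 in both pairs and 15.9% were lower without overlap. PAU3, the lowest, gave 72.8 and 57.4 in wild type against 17.0 and 17.3 in spt3 (-1.91 ± 0.69, adjusted p = 0.207). PAU7, the one nearest to wild type, gave 29.4 and 32.2 against 13.7 and 14.3 (-1.14 ± 0.59, adjusted p = 0.338). These family probe sets can take up signal from one another, so the 10 are not separate observations. PAU23, also known as DAN2, is counted in both lists.

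**Figure D3:**
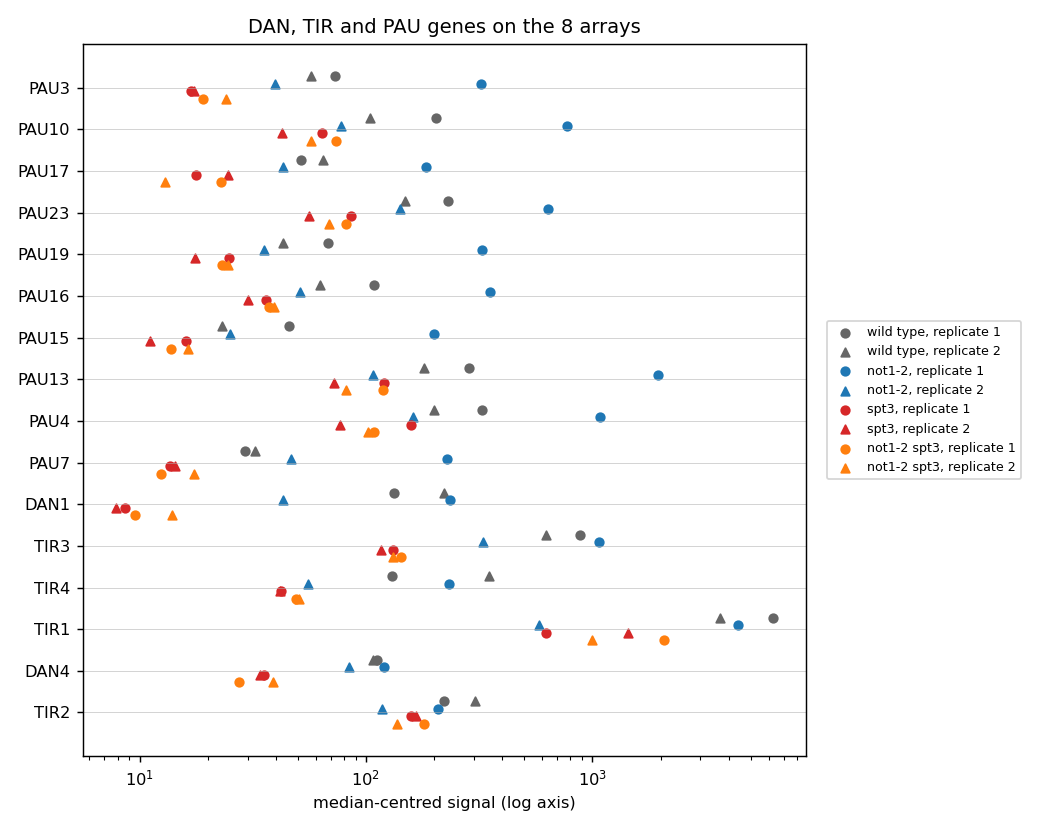
Median-centred signal (log axis) of the measured DAN, TIR and PAU genes on the 8 arrays, with circles for replicate 1 and triangles for replicate 2 and a colour for each strain. The red spt3 points lie to the left of the grey wild-type points for every gene plotted, and not1-2 replicate 1 is the highest of the 8 arrays for the 10 PAU genes.

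The 16 hypoxic genes, a list of other oxygen-responsive genes, had a median of -0.38, with 11 below wild type and 5 above. None of the 16 passed, against 0.568% of all probe sets tested. ANB1, the translation factor isoform that yeast makes without oxygen, gave 4347 and 1581 in wild type against 252 and 616 in spt3 (-2.73 ± 0.85, adjusted p = 0.166). The mitochondrial ADP/ATP carrier gene AAC3 was at -1.59 ± 0.66 and HEM13, a heme synthesis gene, at -1.32 ± 0.43 (adjusted p = 0.255 and 0.183). For ANB1 and AAC3 both pairs were lower by at least 1, while HEM13 was at -2.14 in the first pair and -0.50 in the second. ROX1, the repressor of hypoxic genes, was at 1.97 in the first pair and 0.14 in the second.

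REE1 and YJL218W lie side by side on chromosome X, and both fell. REE1, which is known for an effect on the expression of enolase, gave 2111 and 1051 in wild type against 415 and 235 in spt3 (-2.25 ± 0.31, adjusted p = 0.0307). YJL218W, an uncharacterised gene, gave 98.4 and 141 against 13.0 and 23.2 (-2.76 ± 0.40, adjusted p = 0.0367). The strains do not overlap for either gene. Both were also lower than in not1-2, by -1.57 and -2.28 (adjusted p = 0.0426 and 0.0321). They passed in 9 and 8 of 19 alternatives.

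UTR2, a chitin-glucan crosslinking enzyme of the cell wall, gave 568 and 849 in wild type against 152 and 203.5 in spt3 (-1.98 ± 0.32, adjusted p = 0.0417). On the not1-2 arrays it gave 384 and 296, and spt3 differed from them by -0.94 (adjusted p = 0.144). YNL146C-A, a small open reading frame, gave 78.4 and 21.4 against 2.67 and the floor (-4.26 ± 0.58, adjusted p = 0.0307). It lies close to MFA2, with YNL146W between them, and YNL146W was at 0.49 ± 0.42 (adjusted p = 0.56). YNL146C-A differed from not1-2 by -1.24 (adjusted p = 0.277). UTR2 and YNL146C-A passed against wild type and not against not1-2, which does not show that spt3 and not1-2 were alike. For UTR2 both not1-2 arrays lay between those of spt3 and wild type. The part of mating type in these differences was not tested.

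Of the 28 probe sets that fell, 12 belong to the class whose probes match a family of related sequences, and 8 of those carry no gene name. One of the 8 gave 2293 and 645 in wild type and 589 and 236.5 in spt3 (-1.70 ± 0.26, adjusted p = 0.0367). Another gave 1954 and 588 in wild type and 284 and 213 in spt3 (-2.12 ± 0.32, adjusted p = 0.0367), with 1343 and 642 in not1-2 and 374 and 182 in the double mutant. Without the block the adjusted p of the 8 ran from 0.773 to 0.864, and they passed in 1 to 7 of 19 alternatives. What these sequences are is not given in the annotation used here, and since they match families the 8 may report the same transcripts.

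Of all 235 such unnamed family probe sets tested, 220 were below wild type and 188 were below it in both pairs, against 3630 and 2294 of the 7043 probe sets. Their median was -1.10, with -1.65 in the first pair and -0.60 in the second, and 8 passed as lower, against 0.398% of all probe sets. The class was looked at because of its called members, so these values only describe it. Of the 235, 51 were lower without overlap, against 15.9% of all probe sets. Falls were also seen in the nearest classes, again larger in the first pair. Family probe sets that name 1 gene were below wild type in 118 of 132 cases, and those that name several in 87 of 100. Among other probe sets that name no gene or several, 1085 of 1353 were below. The largest fall without a gene name that was not of a family class belonged to a probe set that gave 527 and 886 against 88.3 and 75.3 (-3.07 ± 0.44, adjusted p = 0.0367). YNCO0029C, a tRNA gene read by a family probe set, gave 164.5 and 66.6 against 40.1 and 22.4 (-1.80 ± 0.29, adjusted p = 0.045) and did not differ from not1-2 past the test (0.20, adjusted p = 0.757).

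Of 18 SAGA genes tested SPT3 alone passed, while 0.568% of all probe sets tested did. At that share, no call among the other SAGA genes is the usual outcome for a list this short. SPT8, the partner of Spt3 within SAGA, gave 34.3 and 71.3 in wild type against 105 and 86.4 in spt3 (0.95 ± 0.38, adjusted p = 0.245). GCN5, the acetyltransferase subunit, was at 0.39 ± 0.44, and UBP8, the deubiquitinase subunit, at 1.01 ± 0.69. The scaffold genes SPT7 and SPT20 were at -0.12 ± 0.35 and 0.85 ± 0.38, and TRA1, the activator-binding subunit, at 0.65 ± 0.29 (adjusted p = 0.872, 0.277 and 0.269). Of the other 17 SAGA genes, SPT8, SPT20, NGG1, TRA1 and TAF5 were higher on both spt3 arrays than on both wild-type arrays, which held for 16% of all probe sets tested. HFI1 and ADA2 were lower on both spt3 arrays, which held for 15.9%. None of the 17 genes of the TATA-binding protein and its partners passed, again against 0.568% of all probe sets. SPT15, which encodes that protein, was at 0.39 ± 0.34. NCB2, a subunit of the NC2 repressor, was at -1.22 ± 0.34 and TAF2, a TFIID subunit, at 1.29 ± 0.45 (adjusted p = 0.141 and 0.2).

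Genes at which Spt3 or SAGA has been studied in yeast were measured in this glucose medium. Outside the pheromone genes none of them passed, against 0.568% of all probe sets tested. GAL1, the galactokinase gene, was near the low end of the array at 9.68 and 8.49 in wild type and 7.38 and 5.37 in spt3 (-0.53 ± 0.43). PHO5, an acid phosphatase gene, was at -0.02 ± 0.38, HO at -0.25 ± 0.39, INO1 at -0.77 ± 0.57 and TRP3 at 0.72 ± 0.30. ADH1 was at -0.48 ± 0.14 (adjusted p = 0.154). ARG1, an arginine synthesis gene, gave 157.5 and 188 in wild type against 761 and 338 in spt3 (1.56 ± 0.42, adjusted p = 0.122). Missing the threshold does not show that any of these genes was unchanged.

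No stress gene under Msn2 and Msn4 passed, against 0.568% of all probe sets tested. Of the 42 tested, 32 were above wild type and 25 were above it in both pairs, against 3413 and 1957 of all 7043 probe sets, with list medians of 0.66 and 0.46 in the pairs. HSP12, a membrane-protecting stress protein, gave 67.4 and 70.4 in wild type against 365 and 284 in spt3 (2.23 ± 0.49, adjusted p = 0.0812). HXK1, the hexokinase gene that glucose represses, gave 35.6 and 65.9 against 299.8 and 169.7 (2.22 ± 0.48, adjusted p = 0.0792), and DDR2 was at 1.31 ± 0.30 (adjusted p = 0.0841). HSP12 was higher still on the not1-2 arrays, at 463 and 945.

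The phosphate transporter gene PHO84 was at 2.28 ± 0.62 and the wall protein gene PIR3 at 2.35 ± 0.57 (adjusted p = 0.131 and 0.102). Both were above wild type by more than 1 in both pairs. MET17, the homocysteine synthase of the sulfur pathway, gave 479 and 410 in wild type and 1158 and 928 in spt3. It did not pass against wild type (adjusted p = 0.0905) and was 1.63 above not1-2 (adjusted p = 0.0305). YPS3, a wall-associated aspartic protease gene, was at -1.31 ± 0.33 against wild type (adjusted p = 0.111) and -2.92 against not1-2 (adjusted p = 0.00879).

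Several lists differed more on the replicate 1 arrays. The respiratory chain and ATP synthase genes had a median of 1.06 in the first pair and 0.36 in the second. Of the 36, 30 were above wild type in both pairs and 13 were higher in the first only, against 1957 and 778 of all 7043. None of the 36 passed, against 0.568% of all probe sets tested. QCR2, a core subunit of the cytochrome bc1 complex, gave 47.8 and 109.5 in wild type against 212 and 245 in spt3 (1.66 ± 0.36, adjusted p = 0.0792). RIP1, the Rieske protein of the same complex, gave 8.13 and 124 against 119 and 160.5, so its low value was that of wild-type replicate 1 alone.

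Other lists were also farther from wild type in the first pair. Mitochondrial ribosomal proteins had medians of 0.58 and 0.07, proteasome subunits 0.63 and 0.03, heat shock proteins 0.72 and 0.09, and tricarboxylic acid cycle genes 0.71 and 0.05 in the first and second pairs. No gene of these 4 lists passed, against 0.568% of all probe sets tested. Cytosolic ribosomal proteins had medians of -0.35 and -0.01, and their overall median of -0.15 became 0.09 after quantile normalization. The 6 mitochondrially encoded genes tested went the other way from the nuclear ones, at -1.25 and -0.53. Since wild-type replicate 1 had the ACT1 ratio of 199.1, its RNA integrity moves with these first-pair values, and its part in these list medians was not tested.

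**Figure D4:**
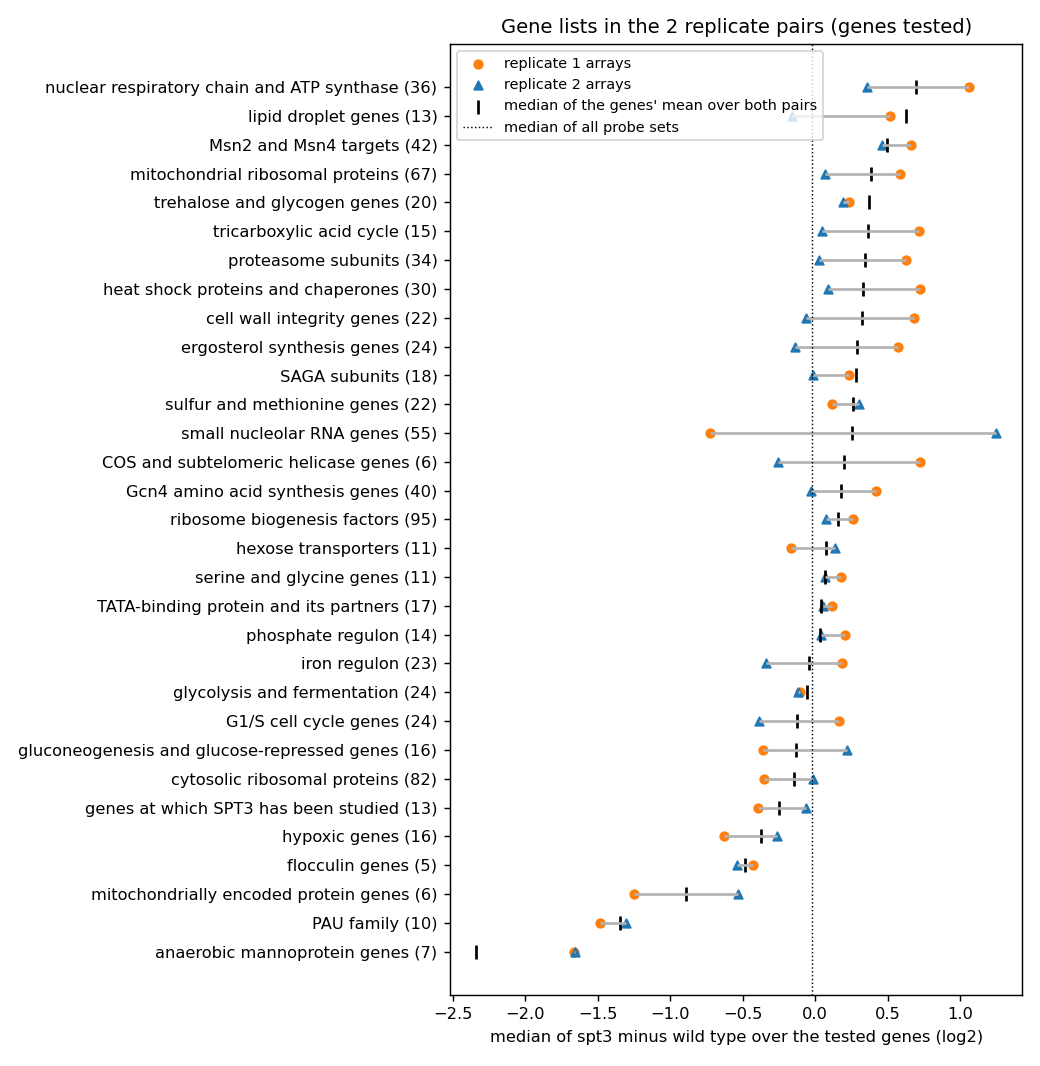
Median difference between spt3 and wild type (log2, x axis) over the tested genes of each list (y axis, number of genes in brackets), in the replicate 1 pair (orange circles) and the replicate 2 pair (blue triangles), with a bar at the median of the genes' mean over both pairs. The PAU and anaerobic mannoprotein lists are low in both pairs, while small nucleolar RNA genes are at -0.72 and 1.25.

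Taken probe set by probe set, differences confined to the replicate 1 arrays far outnumbered those seen in both pairs. A difference was called confined to a pair where it reached 1 on the log2 scale there and was under 0.5, or of the opposite sign, in the other pair. By that measure 778 probe sets were higher in the first pair only (11%) and 655 lower (9.3%). Confined to the second pair were 87 higher (1.24%) and 105 lower (1.49%). A further 54 (0.77%) reached 1 in both pairs with opposite signs and are in none of these counts. In both pairs 71 were higher (1.01%) and 266 lower (3.78%), of which 58 and 92 named a single gene. None of the pair-confined probe sets passed the limma test, which favours differences that hold in both pairs. Of those confined to the first pair, 171 higher and 165 lower ones had an unadjusted p under 0.05.

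Among the genes higher in the first pair only, those with the largest differences were low on 1 wild-type array. AGE2, an Arf GTPase-activating protein gene, was at the floor on wild-type replicate 1 and at 59.3 on replicate 2, against 33.2 and 49.0 in spt3. JSN1, a Puf-family RNA-binding protein gene, was at the floor and 66.8 against 27.1 and 69.5, and HCM1, a forkhead transcription factor gene, at the floor and 60.8 against 21.9 and 33.6. In all 3 genes wild-type replicate 1 was the lowest of the 4 arrays and wild-type replicate 2 overlapped with spt3 or lay above it. Among those lower in the first pair only, PHO3, an acid phosphatase gene, gave 5427 and 1176 in wild type against 557 and 868 in spt3.

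Transfer RNA genes showed the same split. They lack poly(A) tails, and the labels describe the molecule as polyA RNA. Of 90 tRNA genes tested, 87 were below wild type, 52 were lower in the first pair only, against 3630 and 655 of all 7043, and the medians were -1.95 and -0.13 in the pairs. Their median log2 level was 7.23 on wild-type replicate 1, 6.10 on wild-type replicate 2, and 5.32 and 6.06 in spt3. Wild-type replicate 1 was the highest of the 4 arrays.

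Differences confined to the second pair were fewer, and none passed. DSE4, a daughter-cell glucanase gene, gave 139 and 281 in wild type against 119 and 60.1 in spt3. AMN1, which acts in mitotic exit and cell separation, gave 139 and 450 against 145.5 and 101.3, and the cyclin gene PCL1 gave 23.6 and 49.8 against 22.8 and 10.1. In each case the wild-type replicate 2 array was high and the spt3 replicate 2 array low. CTS1, the chitinase of cell separation, was lower in both pairs at 1996 and 1390 against 1008 and 606 (-1.09 ± 0.27, adjusted p = 0.108).

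**Figure D5:**
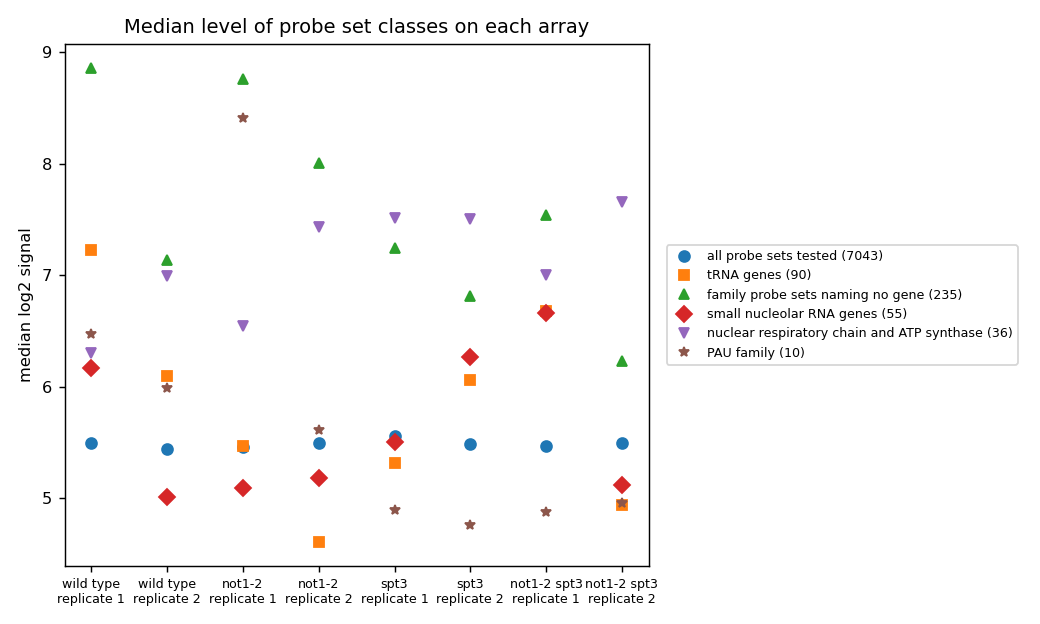
Median log2 signal (y axis) of 6 classes of probe sets on each of the 8 arrays (x axis), with the number of probe sets in brackets. All probe sets together stay between 5.44 and 5.56, tRNA genes are highest on wild-type replicate 1 at 7.23, and the PAU family is at 4.90 and 4.76 in spt3 against 6.47 and 5.99 in wild type.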

How the data were processed

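The authors deposited 1 intensity, on a linear scale, for each probe set and array. The software behind it was not given in the sources used here. Per the labels' protocols, acid phenol was used for extraction and biotin for labelling. All 8 arrays had a trimmed mean of 100.1, so they had been scaled before deposit. The 60 controls were left out. Of 9275 others, 6504 named 1 gene in the platform annotation, 328 several and 2443 none, and names follow assembly R64. Array medians spanned 0.419 on the log2 scale, so the medians were made equal. Signals were raised to a floor of 1.72, the 10th percentile, and log2 was taken. Probe sets whose highest strain mean exceeded 6.99, the 25th percentile, were kept (7509), and the brightest for each gene was tested (7043, of which 5355 named 1 gene, 291 several and 1397 none).

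All 8 arrays were fitted in limma 3.58.1 (R 4.3.3) with strain and replicate number as terms, leaving 3 residual degrees of freedom, an intensity trend, and adjustment after Benjamini and Hochberg over all 7043. The median SE was 0.347 with the block and 0.486 without. The pairing comes from the titles' replicate numbers. Same-numbered arrays deviated together in all 6 pairs of strains, with r from 0.188 to 0.739, and 0.453 between wild type and spt3. The fit was tested on simulated data. Adjusted p-values in the text are limma's.

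The comparison and the 38 gene lists were chosen with earlier results of these data known, so no list is independent evidence. Of the list entries 1016 matched a current symbol and 1 did not. Named genes were SPT3, the marker genes, every passing probe set of 1 gene, up to 4 passing members of a list or else the 2 with the smallest p, the 8 highest and 8 lowest by the smaller pair difference, 6 in each direction confined to a pair, and all mating-type and SAGA genes. Others, among them members of the DAN, TIR, PAU, hypoxic, serine and small nucleolar RNA lists, were named after their values were seen. Promoter sequences were not used here. Alternatives changed the block, scaling, floor, filter, probe sets of a gene, trend, threshold and arrays, and quantile normalization without the block was added after seeing the data.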

Additional observations from a re-analysis of the deposited data

How the results depend on the processing

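The count of 40 probe sets between spt3 and wild type became 4 with no replicate block, 13 with quantile normalization, 24 and 8 with the floor at the 5th and 25th percentile, and 2 with no filter on low values. It was 22 with a filter on the mean, 22 with all probe sets of a gene, 14 with no intensity trend, 160 at a threshold of 0.1, 2 with the ACT1 ratio and the block, and 2 with quantile normalization and no replicate block. With 1 array left out it ran from 5, without wild-type replicate 1, to 687, without spt3 replicate 2. Leaving out wild-type replicate 2 gave 15, spt3 replicate 1 gave 8, either not1-2 array gave 10, and the double-mutant arrays gave 19 and 21. No centring and a fit to the 4 arrays alone gave 35 and 49. The count of 161 between spt3 and not1-2 became 2 with no replicate block, 40 with the floor at the 25th percentile, 74 with no intensity trend, 482 at a threshold of 0.1, 27 with the ACT1 ratio and the block, 437 with only the arrays compared, and 1 with quantile normalization and no replicate block. With no filter limma called 0, with 1409 at an unadjusted p under 0.05. With 1 array left out it ran from 0, without not1-2 replicate 1 (671 at an unadjusted p under 0.05), to 254, without spt3 replicate 2. Leaving out not1-2 replicate 2 gave 19, spt3 replicate 1 gave 72, and the double-mutant arrays gave 92 and 94. None of the 23 called genes named by a single probe set changed direction between spt3 and wild type in any alternative run. Direction was not followed for the other called probe sets or for the comparison with not1-2. The cause of these changes was not tested, except that leaving out an array removes residual degrees of freedom and the lone array is assumed to vary like the others. Over all results and alternatives 2873 values kept their status, which includes genes that were not called in either setting. This count therefore does not measure how often a call held. A further 230 lost the call, 51 gained one and 93 moved. MFA1 and MFA2 passed in 18 of 19 alternatives, MF(ALPHA)1 and TRP1 in 17, DAN1 in 10, TIR3 in 9 and STE3 and UTR2 in 3. Without centring the median of all probe sets was 0.09 in place of -0.02.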
